A study of Mus musculus with 24 samples.

Results

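CC chemokines are secreted proteins with adjacent cysteines near the amino terminus that bind G protein-coupled receptors on leukocytes and direct their migration along a gradient. Macrophages are a major source of them in tumors, where the ligands of CCR2 draw monocytes, Ccl3, Ccl4 and Ccl5 encode proteins that draw T cells and natural killer cells, and the ligands of CCR4 and CCR3 draw regulatory or type 2 T cells and eosinophils. Transcripts of 10 members of this family, taken by their gene symbols from the deposited expression table of 35770 symbols, were followed in mouse bone marrow-derived macrophages (BMDM). The members were Ccl2, Ccl7, Ccl8 and Ccl12 (the monocyte chemoattractant genes), Ccl3, Ccl4 and Ccl5 (the MIP-1 and RANTES genes), Ccl17 and Ccl22 (the CCR4 ligands) and Ccl24 (a CCR3 ligand, also called eotaxin-2). All 10 were among the 13661 genes that exceeded 1 TPM in at least 3 libraries and were tested. Ccl17 and Ccl22 did so only through libraries of WT CM/vehicle and KEAP1 KO CM/vehicle, the groups in which they were high, so counts are also given over the other 8 members.

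The BMDM came from C57BL/6 mice and were grown with M-CSF, and all 24 libraries share that background, with no engineered allele in the macrophages. For 24 h the cells received 75% conditioned medium (CM) and 25% fresh medium, together with vehicle or 100 nM CDDO-Me (bardoxolone methyl), a synthetic triterpenoid that binds KEAP1 and thereby activates the transcription factor NRF2. The CM had stood for 48 h on LL2 cells that were WT, KEAP1 KO or NRF2 KO, a Lewis lung carcinoma line from C57BL/6 mice, or in a plate without cells (control medium, named media). KEAP1 holds NRF2 low, so KEAP1 KO cells have constitutively active NRF2 and NRF2 KO cells have none. The knockouts were made with CRISPR in the cancer cells, and 1 line stood for each knockout. Each of the 8 groups held 3 libraries, described as independent samples without saying whether they came from different animals, so p-values measure the spread between these samples. The name of a group gives the medium and then the treatment, as in WT CM/vehicle.

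The values are read as TPM, the share of transcripts that a gene makes up. The table is named for length-scaled counts, but each column has the same total, and over 2951 scarce genes with 1 transcript the smallest value above 0 fell with transcript length (slope −1.27 on log2 scales, Pearson r = −0.36), as a value per length does and a count does not. The read total of each library is not given in the sources used here. Fold changes are differences of log2(TMM-scaled TPM + 1), with the standard error (SE) from a limma fit over the 24 libraries, and a gene is called changed at an adjusted p under 0.05 over all 13661 genes. Between 15702 and 18993 genes were above 0 per library, with the lowest counts in replicate 3 of NRF2 KO CM/vehicle (15702) and replicate 3 of NRF2 KO CM/CDDO-Me (16299). These 2 libraries stood apart from the others, and results that change without them are given both ways. All 10 listed macrophage markers were above 0 in every library (Csf1r from 660.4 to 1599 TPM, Adgre1 from 350.4 to 929 TPM). Cd163, a scavenger receptor on that list, was the exception in level, from 0.376 to 12.9 TPM. Transcripts of fibroblasts and other stromal cells were also present, with Col1a1 from 55.0 to 789.7 TPM. Of 10 dendritic cell markers, Fscn1 (26.2 to 169 TPM) and Batf3 (2.17 to 60.9 TPM) were above 1 TPM in all 24 libraries, Clec9a reached 123 TPM and Xcr1 4.69 TPM in some, and Flt3 and Ccr7 reached at most 0.239 and 0.498 TPM. In such bulk RNA, fewer cells of a type and less RNA per cell cannot be told apart.

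In naive macrophages, media/vehicle, the 10 transcripts summed to 342 ± 51 TPM (SD, n = 3), and Ccl3 had the largest mean share of that sum, 33.9% ± 5.97. Ccl7 followed with 21.5% ± 3.69, Ccl4 with 20.5% ± 2.88 and Ccl2 with 19.6% ± 0.239. The sum was 1078 ± 239 TPM in WT CM/vehicle and 1240 ± 270 TPM in KEAP1 KO CM/vehicle, where Ccl7 led with 33.9% ± 3.42 and 39.1% ± 1.94. NRF2 KO CM/vehicle summed to 408.8 ± 24.7 TPM with Ccl3 in front, as in media/vehicle. Under CDDO-Me the makeup was a different one again in WT CM, where Ccl5 alone made up 74.2% ± 9.24 of 1461 ± 752 TPM, and in KEAP1 KO CM, where it made up 66.9% ± 5.04 of 1332 ± 705 TPM. In media/CDDO-Me and NRF2 KO CM/CDDO-Me, Ccl2 and Ccl7 together made up most of a sum of 259.4 ± 61.2 TPM and 306.7 ± 35.8 TPM.

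**Figure D1:**
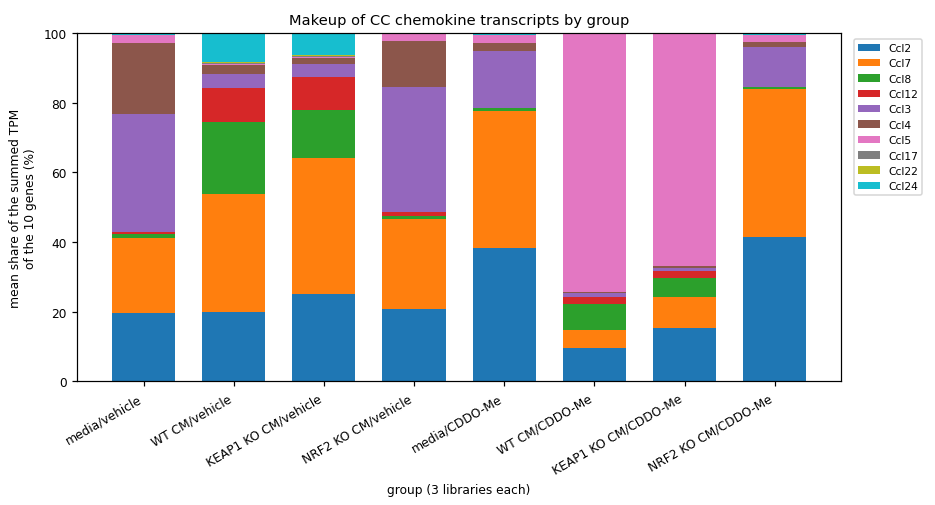
Mean share of each of the 10 CC chemokine transcripts in their summed TPM (y axis, percent) in each of the 8 groups (x axis, 3 libraries each). Ccl5 takes 74.2% and 66.9% of the bar with CDDO-Me in WT CM and in KEAP1 KO CM and a small part elsewhere.

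The first question was how CM of each LL2 line changed these transcripts in macrophages given vehicle. With WT CM, 8 of the 10 members passed the test (7 higher, 1 lower) against 7.23% of all genes tested (4.38% higher, 2.85% lower), and with KEAP1 KO CM 9 passed (7 higher, 2 lower) against 8.06% (4.87% higher, 3.19% lower). The libraries of the compared groups did not overlap for 10 members with WT CM, against 35% of all genes, and for 9 with KEAP1 KO CM, against 35.8%. Without Ccl17 and Ccl22, 6 of 8 passed with WT CM (5 higher, 1 lower) and 7 of 8 with KEAP1 KO CM (5 higher, 2 lower). The median log2 fold change over these 8 was 2.04 with WT CM and 2.44 with KEAP1 KO CM, beside 0.01 over all genes in both. With NRF2 KO CM none of the 10 was called, where the background was 0.00732%, a single gene, and 1650 genes had an unadjusted p under 0.05. Libraries did not overlap there for 2 members, Ccl7 and Ccl12, against 12.6% of genes.

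**Figure D2:**
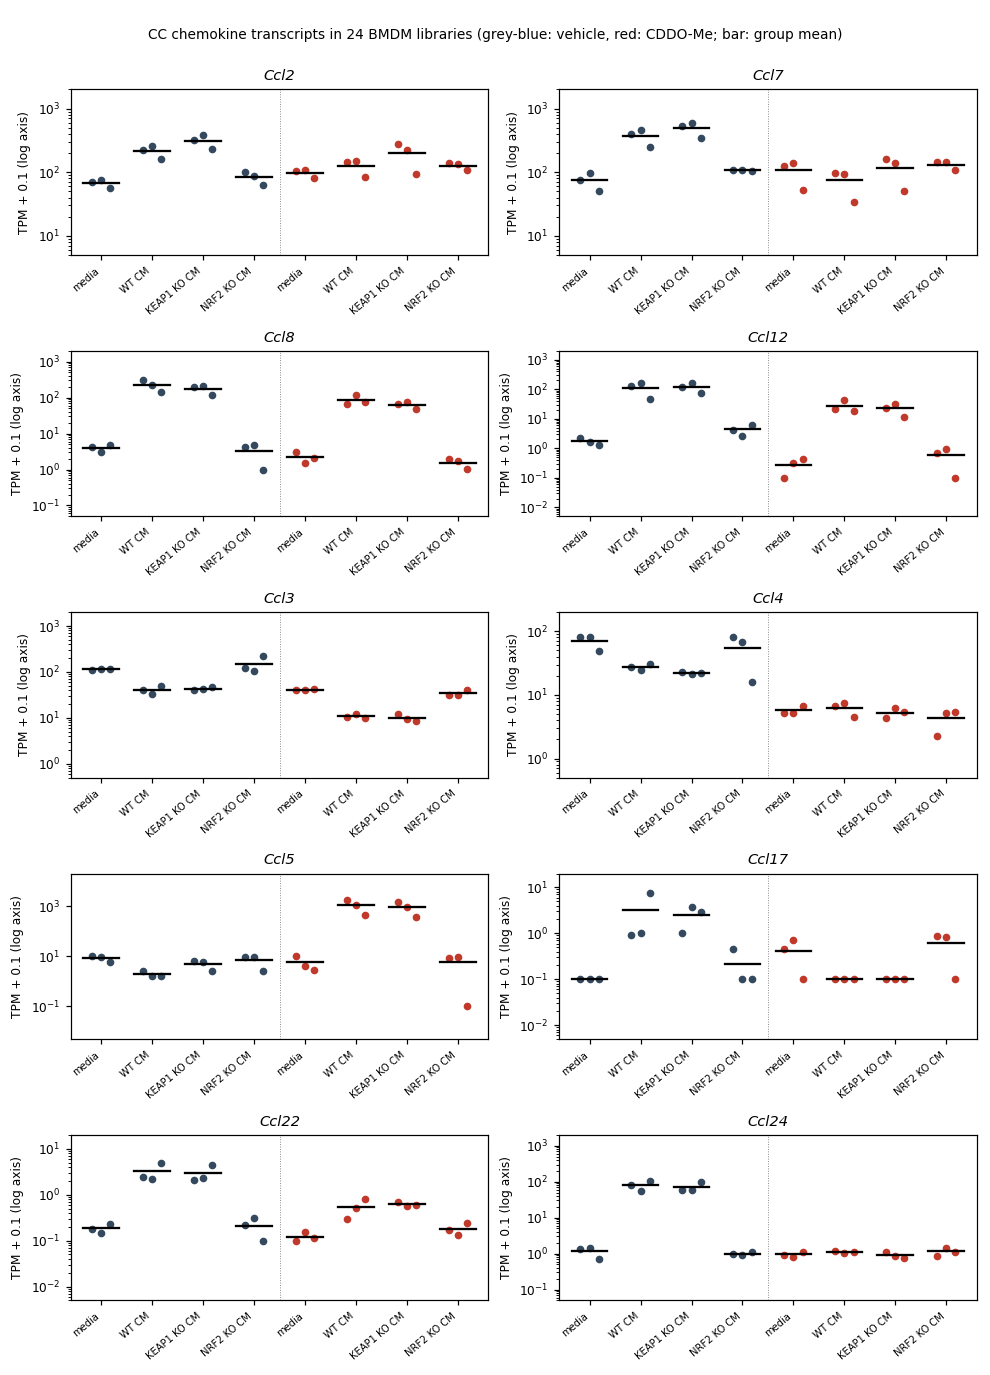
TPM + 0.1 of each gene (y axes, logarithmic) in the 24 libraries, with 1 point per library, ordered by replicate number within a group, and a bar at the group mean; the 4 groups on the left of each panel had vehicle and the 4 on the right CDDO-Me. Ccl8, Ccl12, Ccl22 and Ccl24 are high with WT CM and KEAP1 KO CM under vehicle, and Ccl5 is high with these media under CDDO-Me only.

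Ccl2 encodes MCP-1, the main CCR2 ligand that brings inflammatory monocytes out of the bone marrow (gene on GRCm39 chr11:81926397-81928279, plus strand). It stood at 70.6, 75.2 and 55.4 TPM in media/vehicle, then 222, 258 and 164 TPM in WT CM/vehicle. KEAP1 KO CM/vehicle held 320.5, 382 and 230.1 TPM, and NRF2 KO CM/vehicle 101, 87.7 and 63.0 TPM. Every library with WT CM or KEAP1 KO CM lay above every library of the other vehicle groups. Against media/vehicle the log2 fold change was 1.72 with WT CM (SE 0.295, adjusted p = 0.00068) and 2.18 with KEAP1 KO CM (SE 0.295, adjusted p = 4.7e-05), while NRF2 KO CM gave 0.31 with a 95% interval from −0.31 to 0.923.

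Ccl7 encodes MCP-3, which also acts on CCR2 (chr11:81936532-81938351, plus strand). Its level was 75.7, 97.3 and 51.1 TPM in media/vehicle and 399, 461 and 249 TPM in WT CM/vehicle, up by 2.36 on the log2 scale (SE 0.416, adjusted p = 0.00085). In KEAP1 KO CM/vehicle it reached 530.2, 586 and 347 TPM, the highest group mean of any of the 10 genes under vehicle. The libraries of NRF2 KO CM/vehicle held 107, 106 and 106 TPM, all above those of media/vehicle, and the difference of 0.55 (SE 0.416) had an adjusted p of 0.49.

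Ccl8 and Ccl12, neighbours on chromosome 11 (chr11:82006007-82007625 and chr11:81992645-81994466, both on the plus strand), had the largest rises of the monocyte chemoattractant genes. Ccl12 encodes MCP-5, a CCR2 ligand found in mice, and Ccl8 encodes MCP-2, which in mice acts through CCR8. Over the 24 libraries the log2 levels of Ccl8 and Ccl12 had a Pearson r of 0.955, and those of the CCR4 ligand genes below, Ccl17 and Ccl22, 0.802. Ccl22 was closer to Ccl24 on chromosome 5 (0.937), and Ccl17 was about as close to Ccl24 (0.813) as to Ccl22. The promoters of these 2 pairs are shown, from 250 bases before to 50 after the transcription start in RefSeq on GRCm38.p6, whose coordinates differ from those of GRCm39. Capitals mark TATAAA, the TATA box letters, which start 32 bases before the start site in Ccl8 (chr11:82114935-82115234, plus strand) and 31 bases before it in Ccl12 (chr11:82101595-82101894, plus strand).
Ccl8: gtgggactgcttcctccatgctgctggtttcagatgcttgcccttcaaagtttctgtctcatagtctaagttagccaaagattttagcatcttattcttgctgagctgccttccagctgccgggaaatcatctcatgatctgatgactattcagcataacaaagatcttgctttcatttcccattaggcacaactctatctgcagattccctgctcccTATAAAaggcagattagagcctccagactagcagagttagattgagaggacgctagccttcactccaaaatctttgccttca
Ccl12: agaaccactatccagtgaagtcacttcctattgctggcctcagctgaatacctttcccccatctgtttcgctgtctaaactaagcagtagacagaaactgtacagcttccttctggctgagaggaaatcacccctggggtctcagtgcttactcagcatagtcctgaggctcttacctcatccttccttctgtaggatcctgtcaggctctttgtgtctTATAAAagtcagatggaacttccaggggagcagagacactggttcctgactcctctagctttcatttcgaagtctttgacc
Of 32851 promoters of this length, 13.6% hold TATAAA on either strand. The letters GAAANNGAAA, an IRF-type motif, occur in 3.44% and GGGNNTTTCC, an NF-kB-type motif, in 1.63%, and neither occurs in the promoters of the 5 members that the table holds, Ccl3, Ccl8, Ccl12, Ccl17 and Ccl22. A match or its absence describes these letters in this window. Ccl2, Ccl4, Ccl5, Ccl7 and Ccl24 had no entry.

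Ccl8 was at 4.13, 3.01 and 4.76 TPM in media/vehicle, at 305, 226 and 143 TPM in WT CM/vehicle and at 204, 208 and 115 TPM in KEAP1 KO CM/vehicle. The log2 fold changes against media/vehicle were 5.51 (SE 0.345, adjusted p = 1.3e-09) with WT CM and 5.11 (SE 0.345, adjusted p = 4.4e-09) with KEAP1 KO CM. Ccl12 was at 2.20, 1.59 and 1.22 TPM in media/vehicle, and at 127, 162 and 48.1 TPM in WT CM/vehicle, a change of 5.30 (SE 0.422, adjusted p = 4.6e-08). Neither gene was called with NRF2 KO CM. Ccl8 held 4.19, 4.71 and 0.873 TPM there, overlapping the media/vehicle libraries. Ccl12 held 4.22, 2.42 and 6.17 TPM, all above media/vehicle, and its difference of 0.93 (SE 0.422) had an adjusted p of 0.41. Among the genes tested by size of change with WT CM, Ccl8, Ccl24 and Ccl12 ranked at 6, 7 and 8 of 13661.

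Ccl3, Ccl4 and Ccl5 went the other way or did not pass. Ccl3, which encodes MIP-1 alpha (chr11:83538670-83540191, minus strand), was at 109.7, 116 and 117 TPM in media/vehicle and at 40.7, 32.7 and 49.5 TPM in WT CM/vehicle. That was a fall of the log2 level by 1.41 (SE 0.236, adjusted p = 0.00055), and KEAP1 KO CM gave −1.39 (adjusted p = 0.00052). Ccl4, which encodes MIP-1 beta and lies beside Ccl3 (chr11:83553383-83555509, plus strand), went from 82.1, 81.0 and 49.7 TPM to 27.5, 24.2 and 30.1 TPM with WT CM. Its log2 fold change was −1.25 (SE 0.392, adjusted p = 0.062), which became a call at an adjusted p of 0.049 with the replicate number as a block and of 0.00073 without replicate 3 of both NRF2 KO CM groups. With KEAP1 KO CM it fell by 1.60 (adjusted p = 0.013), a call that was lost without replicate 1 or 2 of media/vehicle (adjusted p = 0.066 and 0.06) or replicate 2 of KEAP1 KO CM/vehicle (adjusted p = 0.052).

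Ccl5 encodes RANTES, which recruits T cells (chr11:83416602-83425942, minus strand). Under vehicle it was low everywhere, with 9.73, 9.46 and 6.09 TPM in media, 2.53, 1.51 and 1.46 TPM in WT CM, 6.23, 6.06 and 2.53 TPM in KEAP1 KO CM and 9.42, 9.52 and 2.44 TPM in NRF2 KO CM. The 3 WT CM libraries lay below all media libraries. Their log2 fold change of −1.67 (SE 0.723) had an adjusted p of 0.21, and 0.015 with the replicate number as a block or 0.025 without replicate 3 of both NRF2 KO CM groups. An antisense long noncoding gene overlaps Ccl5 and another overlaps Ccl3 in GENCODE, and Ccl3 shares an exact run of 164 bases with its partner Gm53692, so reads from that stretch could be split between them. The other members share no run of 31 bases or more with transcripts of other genes, except Ccl5 (34 bases at most) and Ccl24 (32 bases).

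The CCR4 ligands Ccl17 (TARC) and Ccl22 (MDC) are products of alternatively activated macrophages and dendritic cells and lie near each other on chromosome 8 (chr8:95534358-95538664 and chr8:95471226-95478327, both on the plus strand). Their promoters on GRCm38.p6 (chr8:94810203-94810502 and chr8:94745434-94745733, plus strand) are printed with capitals on TTCNNNNGAA and TTCNNNGAA, the spacings of STAT6-type and other STAT-type sites, which are their own reverse complements. The first occurs in 6.95% and the second in 8.3% of all promoters of this length.
Ccl17: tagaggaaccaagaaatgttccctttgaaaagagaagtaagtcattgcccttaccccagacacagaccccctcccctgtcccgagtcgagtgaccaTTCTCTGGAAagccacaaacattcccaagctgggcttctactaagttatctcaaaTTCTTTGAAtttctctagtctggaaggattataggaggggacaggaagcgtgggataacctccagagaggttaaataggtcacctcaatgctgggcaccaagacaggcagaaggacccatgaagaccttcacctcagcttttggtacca
Ccl22: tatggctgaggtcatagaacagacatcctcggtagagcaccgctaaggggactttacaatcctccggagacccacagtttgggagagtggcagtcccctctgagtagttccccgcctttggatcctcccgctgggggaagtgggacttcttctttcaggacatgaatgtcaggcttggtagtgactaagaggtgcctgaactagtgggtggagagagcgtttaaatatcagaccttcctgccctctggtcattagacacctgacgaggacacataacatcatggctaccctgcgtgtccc
Ccl17 holds TTCTCTGGAA from 154 bases and TTCTTTGAA from 99 bases before its start site, without overlap, and Ccl22, Ccl3, Ccl8 and Ccl12 hold neither motif in their windows.

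Both CCR4 ligand genes were scarce. Ccl22 was at 0.0771, 0.0484 and 0.127 TPM in media/vehicle, and at 2.30, 2.14 and 4.90 TPM in WT CM/vehicle, up by 1.87 on the log2 scale (SE 0.234, adjusted p = 1.9e-05). KEAP1 KO CM gave 1.75 (adjusted p = 4e-05). Ccl22 was above 1 TPM in 6 libraries, all of WT CM/vehicle or KEAP1 KO CM/vehicle, so it passed the filter only through the groups in which it was high. With no filter on low values the adjusted p-values were 2.7e-05 and 5.3e-05. Ccl17 stood at 0 in each media/vehicle library. It was at 0.823, 0.924 and 7.48 TPM in WT CM/vehicle and at 0.910, 3.63 and 2.81 TPM in KEAP1 KO CM/vehicle, with adjusted p-values of 0.022 and 0.02, and of 0.039 and 0.036 with no filter. It passed the filter with 3 libraries above 1 TPM, and could not be tested without any of those 3. Its call with WT CM was lost without replicate 1, 2 or 3 of media/vehicle (adjusted p from 0.063 to 0.07) and with a pseudocount of 5 (0.067), and its call with KEAP1 KO CM under the same changes (0.058 to 0.063, and 0.1).

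Ccl24, known as a product of IL-4-stimulated macrophages that attracts eosinophils (chr5:135598668-135601905, minus strand), had the lowest adjusted p of the 10 genes with both media. It was at 1.23, 1.34 and 0.601 TPM in media/vehicle, at 81.2, 54.6 and 104 TPM in WT CM/vehicle, at 60.3, 58.5 and 96.3 TPM in KEAP1 KO CM/vehicle and at 0.852, 0.844 and 1.02 TPM in NRF2 KO CM/vehicle. The log2 fold change against media/vehicle was 5.31 with WT CM (SE 0.224, adjusted p = 3.9e-12) and 5.10 with KEAP1 KO CM (SE 0.224, adjusted p = 7.2e-12). NRF2 KO CM gave −0.09, with a 95% interval from −0.556 to 0.383.

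**Figure D3:**
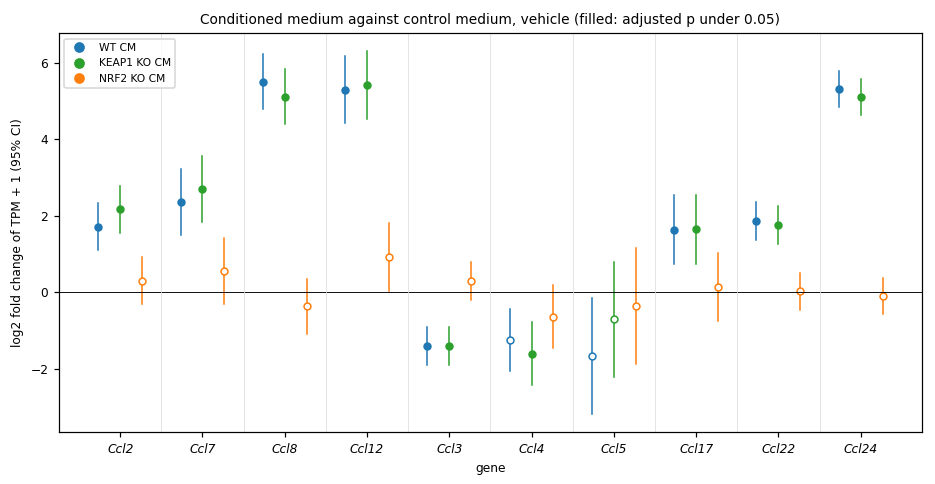
Log2 fold change of TPM + 1 (y axis, with 95% confidence intervals) for each gene (x axis) with the CM of each LL2 line against media, all with vehicle; filled points have an adjusted p under 0.05. Ccl8, Ccl12 and Ccl24 lie above 5 with WT CM and KEAP1 KO CM, and no point of NRF2 KO CM is filled. Ccl17 is listed at 0 in media, so its point depends on the pseudocount.

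WT CM and NRF2 KO CM were also compared directly. Between WT CM/vehicle and NRF2 KO CM/vehicle, 8 members passed the test (7 higher and 1 lower with WT CM) against 10.6% of all genes (6.84% higher, 3.76% lower), and libraries did not overlap for 8 members against 26.4% of genes. Without Ccl17 and Ccl22, 6 of 8 passed. Ccl8 was higher with WT CM by 5.88 (SE 0.345), Ccl24 by 5.40 (SE 0.224) and Ccl12 by 4.37 (SE 0.422) on the log2 scale. Ccl7 was higher by 1.81 (adjusted p = 0.0078) and Ccl2 by 1.41 (adjusted p = 0.0038), and Ccl3 was lower by a log2 fold change of −1.70 (SE 0.236). Ccl4 depended on 1 library, replicate 3 of NRF2 KO CM/vehicle, which held 15.6 TPM beside 80.1 and 67.4 TPM in replicates 1 and 2. With it the log2 fold change was −0.61 (adjusted p = 0.32), and without it −1.29 (adjusted p = 0.0051). Fitted on these groups alone, 9 members could be tested, without Ccl17, and 5 were called, since Ccl3 had an adjusted p of 0.1 and Ccl22 of 0.054. In the fit of all groups Ccl17 lost its call without replicate 2 or 3 of NRF2 KO CM/vehicle (adjusted p = 0.054 and 0.08).

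The test resolved no difference in these genes by the KEAP1 status of the cancer cells. Between KEAP1 KO CM/vehicle and WT CM/vehicle none of the 10 members and 0% of all genes passed by limma, with 350 genes at an unadjusted p under 0.05, and libraries did not overlap for 2 members, Ccl4 and Ccl5, against 13.6% of genes. For Ccl2, with the higher group mean under KEAP1 KO CM (310.9 ± 76.5 TPM beside 214.6 ± 47.4 TPM, SD, n = 3), the log2 difference was 0.46 with a 95% interval from −0.159 to 1.07. For Ccl5 it was 0.96 (−0.554 to 2.47), for Ccl8 −0.40 (−1.13 to 0.317) and for Ccl24 −0.21 (−0.681 to 0.258). These intervals leave room for differences of more than a log2 unit in Ccl2, Ccl5 and Ccl8.

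The second question was what CDDO-Me did to these transcripts, and whether that depended on the medium. In WT CM it changed 9 of the 10 members (1 higher, 8 lower) against 27.9% of all genes (14.4% higher, 13.4% lower), and in KEAP1 KO CM also 9 (1 higher, 8 lower) against 28.8% (14.4% higher, 14.3% lower). In media it lowered 2, Ccl3 and Ccl4, against 6.02% (3.22% higher, 2.8% lower), and in NRF2 KO CM 3, Ccl3, Ccl4 and Ccl12, against 9.61% (4.87% higher, 4.74% lower). The compared libraries did not overlap for 10 members in WT CM (53.5% of all genes), 9 in KEAP1 KO CM (54.1%), 5 in media (31.5%) and 5 in NRF2 KO CM (17.6%). Without Ccl17 and Ccl22, 7 of 8 passed in WT CM and 7 of 8 in KEAP1 KO CM. The median log2 change over these 8 was −1.73, −1.80, −0.64 and −0.63 in WT CM, KEAP1 KO CM, media and NRF2 KO CM, beside −0.01, −0.02, −0.00 and 0.02 over all genes.

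**Figure D4:**
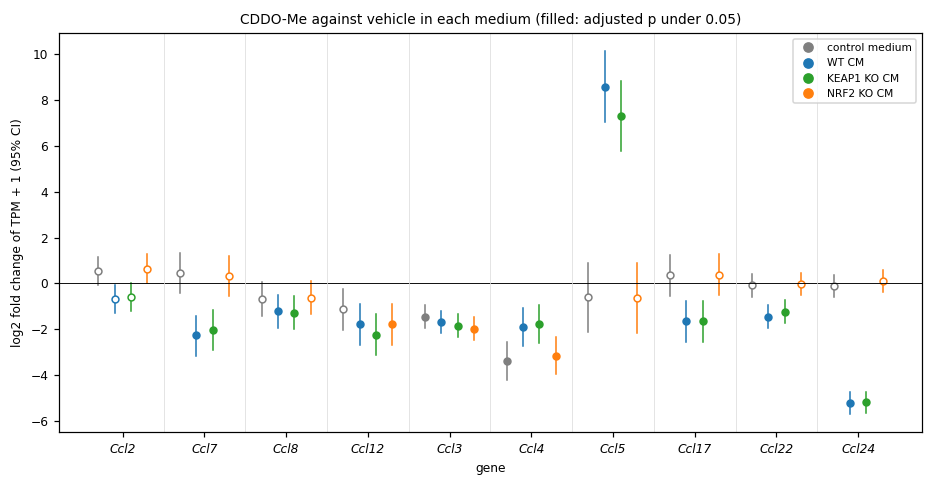
Log2 fold change of TPM + 1 with CDDO-Me against vehicle (y axis, with 95% confidence intervals) for each gene (x axis) in each of the 4 media; filled points have an adjusted p under 0.05. Ccl5 rises by 8.57 in WT CM and 7.29 in KEAP1 KO CM, Ccl24 falls by more than 5 in both, and Ccl3 and Ccl4 are lower in all 4 media. Ccl17 is listed at 0 with CDDO-Me in WT CM and KEAP1 KO CM, so its points there depend on the pseudocount.

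Ccl5 was the member that rose. In WT CM it went from 2.53, 1.51 and 1.46 TPM with vehicle to 1806, 1150.0 and 433 TPM with CDDO-Me, and in KEAP1 KO CM from 6.23, 6.06 and 2.53 TPM to 1437, 941 and 365 TPM. The lowest CDDO-Me library of these media stood far above the highest vehicle library. The log2 fold change was 8.57 in WT CM (SE 0.723, 95% interval 7.05 to 10.1, adjusted p = 1.6e-08) and 7.29 in KEAP1 KO CM (SE 0.723, 5.78 to 8.80, adjusted p = 1.6e-07). By size of change Ccl5 ranked at 7 of 13661 genes in WT CM and at 14 in KEAP1 KO CM. No such rise was seen in the other media. Ccl5 held 10.2, 4.08 and 2.82 TPM in media/CDDO-Me and 8.73 and 9.20 TPM in replicates 1 and 2 of NRF2 KO CM/CDDO-Me, where replicate 3 was listed at 0, overlapping their vehicle groups, with log2 fold changes of −0.61 (−2.12 to 0.906) and −0.63 (−2.15 to 0.881). The CDDO-Me effect on Ccl5 was larger in WT CM than in media by 9.17 on the log2 scale (SE 1.02, adjusted p = 1.7e-06) and than in NRF2 KO CM by 9.20 (SE 1.02, adjusted p = 1.8e-06). Between KEAP1 KO CM and WT CM the effects differed by −1.28, with an interval from −3.42 to 0.864.

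Ccl24 made the opposite move. CDDO-Me took it from between 54.6 and 104 TPM to 1.09, 0.933 and 1.04 TPM in WT CM and from between 58.5 and 96.3 TPM to 1.02, 0.750 and 0.670 TPM in KEAP1 KO CM. These levels overlapped those of media/vehicle, which ran from 0.601 to 1.34 TPM. It fell by 5.21 in WT CM (SE 0.224, adjusted p = 7.4e-13) and by 5.18 in KEAP1 KO CM (SE 0.224, adjusted p = 8.1e-13). In media and in NRF2 KO CM, where Ccl24 was already near 1 TPM, the log2 changes were −0.12 and 0.11. The difference between the effects in WT CM and in media was −5.09 (SE 0.317, adjusted p = 5e-10). Its sign was fixed once Ccl24 fell in WT CM, since the gene had little room to fall in media.

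The CCR4 ligands followed Ccl24 at lower levels. Ccl22 went to 0.198, 0.402 and 0.691 TPM in WT CM/CDDO-Me and fell by 1.44 (SE 0.234, adjusted p = 7e-05), and in KEAP1 KO CM it fell by 1.23 (adjusted p = 0.00036). It stayed above media/vehicle, whose highest library held 0.127 TPM. Ccl17 was listed at 0 in all 6 CDDO-Me libraries with WT CM or KEAP1 KO CM, with adjusted p-values of 0.0061 and 0.0056 against vehicle. Ccl17 and Ccl22 passed the filter only through vehicle libraries of these media. These tests therefore rest on the values that let both genes be tested.

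Ccl7 fell in both of these media. It went to 96.2, 93.6 and 33.6 TPM in WT CM/CDDO-Me and fell by 2.27 (SE 0.416, adjusted p = 0.00026), and it fell by 2.01 in KEAP1 KO CM (adjusted p = 8e-04) to 161, 137 and 50.9 TPM. In media and NRF2 KO CM its log2 changes were 0.45 (−0.418 to 1.32) and 0.33 (−0.543 to 1.20), and the effect in WT CM differed from that in media by −2.72 (SE 0.588, adjusted p = 0.0027).

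Ccl8 and Ccl12 were lowered in part. Ccl8 was at 66.5, 118 and 76.1 TPM in WT CM/CDDO-Me and 64.3, 75.3 and 48.8 TPM in KEAP1 KO CM/CDDO-Me, far above the highest media/vehicle library of 4.76 TPM, with log2 changes of −1.21 (adjusted p = 0.011) and −1.27 (adjusted p = 0.0076) against vehicle. The first was not called without replicate 1 of WT CM/vehicle (adjusted p = 0.074) or replicate 1 of WT CM/CDDO-Me (0.058). Ccl12 was at 21.5, 43.2 and 18.6 TPM in WT CM/CDDO-Me, with a log2 change of −1.78 (SE 0.422, adjusted p = 0.0029, and 0.062 with a pseudocount of 0.1). In KEAP1 KO CM it fell by 2.24 (adjusted p = 0.00033). In NRF2 KO CM its change was −1.79 (adjusted p = 0.0088), from a level of a few TPM, and −1.24 (adjusted p = 0.14) without replicate 3 of both groups. The log2 change of Ccl8 in NRF2 KO CM was −0.63 (adjusted p = 0.33), and −1.10 (0.023) without replicate 3 of NRF2 KO CM/vehicle. For Ccl8 and Ccl12 the effect of CDDO-Me in WT CM was not shown to differ from that in media (−0.53, interval −1.56 to 0.486, and −0.64, interval −1.89 to 0.605). In media, mean Ccl8 went from 3.97 to 2.09 TPM and mean Ccl12 from 1.67 to 0.183 TPM. At such levels the pseudocount of 1 limits how far the log2 level can fall, so the media are not compared on equal terms.

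Ccl2 was the member with no call in any medium in the fit of all 24 libraries without a block for the replicate number. In WT CM it went to 143, 148 and 82.8 TPM, below all 3 vehicle libraries, with a log2 change of −0.67 (SE 0.295, adjusted p = 0.11). In KEAP1 KO CM the change was −0.58 (adjusted p = 0.16, and 0.031 without replicate 1 of KEAP1 KO CM/CDDO-Me), in media 0.55 (adjusted p = 0.4) and in NRF2 KO CM 0.64 (adjusted p = 0.22). With the block the adjusted p was 0.0069 in WT CM, 0.017 in KEAP1 KO CM and 0.022 in NRF2 KO CM. Only in the last did same-numbered libraries all deviate together by the rule given below. There replicates 1 and 2 were as alike across numbers (r = 0.473 and 0.585) as within them (0.504 and 0.588), so pairing by number was not established. In WT CM and KEAP1 KO CM the rule failed on a lowest r of 0.062 and 0.094. The mean r there was 0.26 and 0.29 for same-numbered libraries, beside −0.13 and −0.14 for others. Replicate number was thus shared in part, and the lack of a call without the block does not show that Ccl2 was unchanged. The effects in WT CM and NRF2 KO CM differed by −1.31 (SE 0.416, adjusted p = 0.042). That call was lost without replicate 3 of both NRF2 KO CM groups (adjusted p = 0.076) and with any of 7 single libraries left out (0.062 to 0.13).

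Ccl3 and Ccl4 were lower with CDDO-Me in all 4 media. Ccl3 was at 39.7, 39.6 and 42.8 TPM in media/CDDO-Me, 31.7, 31.1 and 40.7 TPM in NRF2 KO CM/CDDO-Me, and between 8.39 and 12.4 TPM in the 6 libraries with WT CM or KEAP1 KO CM. It fell by 1.45 in media, 1.68 in WT CM, 1.84 in KEAP1 KO CM and 1.97 in NRF2 KO CM on the log2 scale, with adjusted p-values from 4.2e-06 to 5e-04. Ccl4 was between 2.18 and 7.33 TPM in all 12 CDDO-Me libraries. It fell by 3.39 in media (SE 0.392, adjusted p = 1.1e-05), 1.90 in WT CM, 1.77 in KEAP1 KO CM, and in NRF2 KO CM its log2 change was −3.14. The difference between the changes in WT CM and in media did not pass (1.49, SE 0.555, adjusted p = 0.083, and 0.0017 without replicate 3 of both NRF2 KO CM groups). Fitted on the NRF2 KO CM groups alone, Ccl3, Ccl4 and Ccl12 had adjusted p-values of 0.07, 0.093 and 0.12, so that none was called.

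Tested against each other over the CM groups, the CDDO-Me effects differed between WT CM and media for 5 members (1 more positive, 4 more negative) against 15.3% of all genes (8.59% and 6.73%). With KEAP1 KO CM in place of WT CM they differed for 5 (1 and 4) against 14.8% (8.19% and 6.65%), and between WT CM and NRF2 KO CM for 6 (1 and 5) against 13.4% (7.61% and 5.81%). Without Ccl17 and Ccl22 these counts were 3, 3 and 4 of 8. They still include Ccl24, with a mean of 1.06 TPM in media/vehicle and 0.905 TPM in NRF2 KO CM/vehicle. Ccl24, Ccl17 and Ccl22 had little room to fall there, so a more negative difference was fixed once they fell in WT CM or KEAP1 KO CM. Between KEAP1 KO CM and WT CM no member and 0% of genes differed by limma, with 224 genes at an unadjusted p under 0.05. Comparisons with the same control libraries are not independent of each other.

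The order of group means shows which neighbours were separated. For Ccl5, WT CM/CDDO-Me (1129 ± 687 TPM) and KEAP1 KO CM/CDDO-Me (914.4 ± 536 TPM) overlapped each other and lay apart from all other groups. For Ccl24, Ccl17, Ccl22 and Ccl7, WT CM/vehicle and KEAP1 KO CM/vehicle overlapped and lay above the next group. For Ccl8 the gap came after the 4 groups with WT CM or KEAP1 KO CM, since KEAP1 KO CM/CDDO-Me (62.8 ± 13.3 TPM) did not overlap media/vehicle (3.97 ± 0.887 TPM). For Ccl2 every group overlapped the next in order, from 310.9 down to 67.1 TPM. Over the 24 libraries the log2 levels of Ccl8 and Ccl12 had a Pearson r of 0.955 and those of Ccl22 and Ccl24 of 0.937, while Ccl5 and Ccl3 had −0.739. These libraries share groups, so the values describe the pattern over 8 groups of 3.

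The genes outside the family with the most similar pattern over the 24 libraries, measured by Pearson r of log2 levels, were Scn3a (0.998), Retnla (0.997) and Chil4 (0.994) for Ccl24. Retnla and Chil4 are known marker genes of alternatively activated macrophages. For Ccl5 they were BC023105 (0.971), Lgals9 (0.97) and Cxcl9 (0.97), an interferon-induced CXC chemokine. For Ccl8 they were Zbtb5 (0.969) and Pdcd1lg2 (0.967), which encodes PD-L2, and for Ccl2 Sod3 (0.914). The weakest best match was that of Ccl17, with Aqp3 at 0.877.

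Of 11 other CC chemokine genes listed, 5 passed the filter, and Ccl6, Ccl9 and Ccl11 had a pattern in common. Ccl6 and Ccl9, CCR1 ligands of mouse myeloid cells, rose with WT CM by 2.46 (SE 0.243) and 2.43 (SE 0.274), and Ccl11, the eosinophil chemoattractant eotaxin, by 3.11 (SE 0.246). CDDO-Me in WT CM lowered them by a log2 change of −2.74, −5.58 and −3.08. Ccl9 went from 1099.6, 1032 and 1064 TPM to 32.6, 14.0 and 16.1 TPM, below the 197, 181 and 249 TPM of media/vehicle. Ccl25 was called in none of the 9 comparisons of levels. Ccl27a, a ligand of CCR10, was lower in WT CM than in NRF2 KO CM (−0.86) and higher with CDDO-Me in KEAP1 KO CM (0.61).

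Of 14 receptor genes listed, 6 passed the filter. WT CM raised 1 and lowered 0 of them, beside 4.38% and 2.85% of all genes. KEAP1 KO CM raised 1 and lowered 1 (4.87% and 3.19%). CDDO-Me raised 3 and lowered 1 in WT CM (14.4% and 13.4%) and in KEAP1 KO CM (14.4% and 14.3%). It raised 0 and lowered 2 in media (3.22% and 2.8%) and in NRF2 KO CM (4.87% and 4.74%). Ccr1 rose with WT CM (2.14, SE 0.53, adjusted p = 0.016) and KEAP1 KO CM (2.08, adjusted p = 0.017). With CDDO-Me in WT CM, Ccr2, the receptor of the Ccl2 product, rose by 1.93 (SE 0.221), Ccrl2 by 1.02 (SE 0.331, adjusted p = 0.025), and Ccr3, the receptor of the Ccl24 product, fell by 2.37 (SE 0.18). In KEAP1 KO CM Ccr2, Ccrl2 and Ccr3 were called in the same directions.

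Of 20 listed regulators of chemokine genes, all tested, WT CM raised 3, among them Irf4 (2.67) and Irf7 (1.15), and lowered 0, beside 4.38% and 2.85% of all genes. CDDO-Me in WT CM raised 6 and lowered 3, beside 14.4% and 13.4% of all genes, so that the share lowered was near that background. Irf1, an interferon-induced transcription factor, went from 74.6, 56.8 and 112 TPM to 889.5, 915 and 986 TPM (3.69, SE 0.244). Irf8 rose by 2.36, Irf7 by 2.15, Stat3 by 1.35 and Irf5 by 1.25. Irf4, which takes part in alternative activation, fell by 3.04 (SE 0.282) and Rel by 0.65. In media CDDO-Me changed 0 of the 20 by limma, beside 6.02% of all genes, so that this count was near that background. There 2187 of all genes had an unadjusted p under 0.05.

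Replicate number ran through several members. On the scaled log2 levels replicate 3 was the lowest library in 8 of 8 groups for Ccl2 and in 7 of 8 for Ccl7 and for Ccl5, with mean deviations from the group mean of −0.366, −0.519 and −0.886 on the log2 scale. Ccl12 was lowest in replicate 3 in 6 of 8 groups and Ccl8 in 5 of 8, while Ccl3 was highest in replicate 3 in 6 of 8. The summed TPM of 10 fibroblast and stromal markers was also lowest in replicate 3 in 8 of 8 groups (227 to 1153 TPM, beside 460.4 to 2099 TPM in replicate 1 and 714 to 2838 TPM in replicate 2). By treatment it ran from 682 to 1296 TPM in WT CM/vehicle and, overlapping, from 266 to 714 TPM in WT CM/CDDO-Me. It ran from 987 to 1785 TPM in KEAP1 KO CM/vehicle and from 227 to 947 TPM in KEAP1 KO CM/CDDO-Me. The sum was not tested. Of the 10 marker genes, 1 and 3 were called lower with CDDO-Me in these media, beside 13.4% and 14.3% of all genes. Between 9 and 10 of the 10 markers were above 1 TPM per library, Lum being the low one. The part of these cells in the levels of Ccl2, Ccl7 and the other members was not tested. The summed TPM of the 10 dendritic cell markers ran from 93.2 to 113 in WT CM/vehicle and from 157 to 188 in WT CM/CDDO-Me. It ran from 92.0 to 133 in KEAP1 KO CM/vehicle and from 120 to 143 in KEAP1 KO CM/CDDO-Me. The list was split, since of its 6 tested genes 2 were called higher and 2 lower with CDDO-Me in each of these media. Of all genes, 14.4% were called higher and 13.4% lower in WT CM, and 14.4% and 14.3% in KEAP1 KO CM. The median log2 changes of the 6 genes were −0.12 in WT CM and −0.25 in KEAP1 KO CM. The part of dendritic cells in the rise of Ccl5 was not tested.

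**Figure D5:**
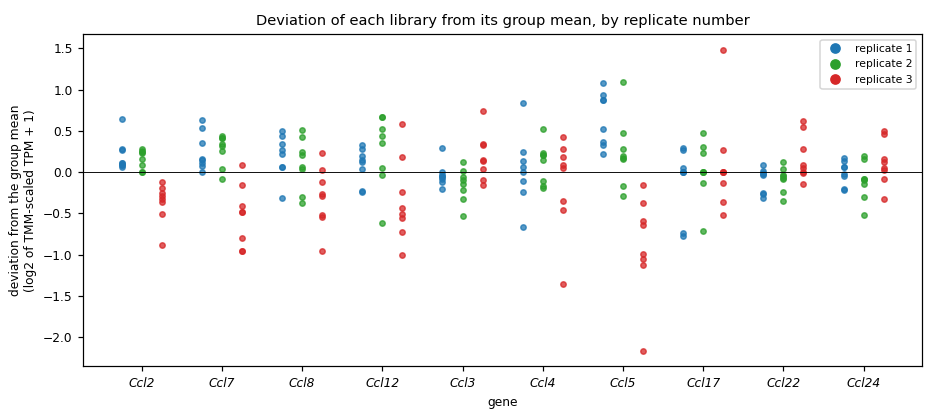
Deviation of each library from its group mean on the log2 scale (y axis) for each gene (x axis), with 8 points, 1 per group, for each replicate number. Replicate 3 is the lowest of its group in 8 of 8 groups for Ccl2 and in 7 of 8 for Ccl7 and Ccl5.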

How the data were processed

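PolyA RNA of 24 BMDM cultures was sequenced, and per the labels and the study's methods the authors quantified reads with kallisto on GRCm39 transcripts. The deposited table holds TPM per gene (the columns sum to one common total with 1 row that names no gene; that row, 199.1 to 635.1 TPM, was left out), so no count test was run, and the read total of each library is not given in the sources used here. From these values, an unweighted TMM scaling (trimming 30% of log ratios and 5% of levels), a filter (TPM above 1 in at least 3 libraries), log2(scaled TPM + 1) and limma 3.58.1 in R 4.3.3 (trended empirical Bayes, 16 residual degrees of freedom, Benjamini-Hochberg over 13661 genes, threshold 0.05) gave all fold changes and p-values in 13 comparisons. The script was tested on simulated data. The members, lists, markers and alternatives were chosen with earlier results of these data known. For each member the 3 genes of highest Pearson r were named. Same-numbered libraries deviated together (every r over 0.1) in 4 comparisons. These were WT CM with media under vehicle (0.14 to 0.39), KEAP1 KO CM with WT CM under vehicle (0.15 to 0.47), and CDDO-Me with vehicle in media (0.16 to 0.45) and in NRF2 KO CM (0.5 to 0.72). In NRF2 KO CM replicates 1 and 2 also deviated together across numbers (0.473 and 0.585), so the rule did not single out pairing by number there. In each of the 13 comparisons the mean r of same-numbered libraries (0.14 to 0.6) was above that of other pairs (−0.24 to −0.066). Positions are from GENCODE on GRCm39, promoters from RefSeq on GRCm38.p6, and exact matches of at least 31 bases from blastn 2.17.0. No authors' comparison columns were used. Alternatives changed the scaling, filter, pseudocount, sample weights, block, samples fitted and libraries. Some genes of the receptor and regulator lists are counted but not reported here by name.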

Additional observations from a re-analysis of the deposited data

Results flagged for a closer look

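The size of the CDDO-Me effect differed between media for 6 of the 10 genes in at least 1 test of the difference itself in the limma fit (values are differences of log2 fold changes, with adjusted p over all genes). Per test, 5 members were called for WT CM with media (15.3% of all genes) and 5 for KEAP1 KO CM with media (14.8%). For WT CM with NRF2 KO CM 6 were called (13.4%). Without Ccl17 and Ccl22, which passed the filter only through vehicle libraries with WT CM or KEAP1 KO CM, these counts were 3, 3 and 4 of 8. They still include Ccl24. Mean levels of Ccl24, Ccl22 and Ccl17 were 1.06, 0.0843 and 0 TPM in media/vehicle and 0.905, 0.112 and 0.115 TPM in NRF2 KO CM/vehicle. From there these 3 genes had little room to fall on this scale. Their negative differences were thus fixed once they fell in WT CM and KEAP1 KO CM, and do not test whether the drug acts differently by medium. For Ccl5 the effect was higher in WT CM than in media by 9.17 (adjusted p = 1.7e-06), higher in KEAP1 KO CM than in media by 7.90 (1.3e-05) and higher in WT CM than in NRF2 KO CM by 9.20 (1.8e-06). For Ccl24 the same differences were −5.09 (5e-10), −5.06 (5.7e-10) and −5.32 (2.7e-10), in media and NRF2 KO CM from a vehicle level near 1 TPM. For Ccl7 they were −2.72 (0.0027), −2.46 (0.0059) and −2.59 (0.0042). For Ccl22 they were −1.36 (0.0069), −1.15 (0.022) and −1.42 (0.0054), the first not called with a pseudocount of 0.1 (0.078) and the second neither with it (0.2) nor without replicate 3 of KEAP1 KO CM/vehicle (0.065). For Ccl17, which is listed at 0 in several of these groups, so that the size depends on the pseudocount and is no bound, they were −2.0 (0.029), −2.01 (0.029) and −2.03 (0.03), and each lost its call with most of the single libraries left out (0.051 to 0.076). Ccl2 differed only between WT CM and NRF2 KO CM, by −1.31 (0.042), a call lost without replicate 1 or 2 of WT CM/vehicle, replicate 3 of WT CM/CDDO-Me, replicate 2 or 3 of NRF2 KO CM/vehicle or replicate 1 or 2 of NRF2 KO CM/CDDO-Me (0.062 to 0.13). No difference between KEAP1 KO CM and WT CM passed the test. The groups held 3 libraries each, too few for a test of single outlying libraries.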

How the results depend on the processing

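Of 64 calls on the members, 47 were kept under every alternative in which the gene could be tested, among them Ccl5 and Ccl24 with CDDO-Me in WT CM and KEAP1 KO CM and Ccl2, Ccl7, Ccl8, Ccl12, Ccl3, Ccl22 and Ccl24 with both of these media. A sign changed in 71 of 2393 recomputed values, none past the threshold in either fit. The 17 calls that were lost somewhere concerned Ccl17 and Ccl22, Ccl4 with KEAP1 KO CM, Ccl8 and Ccl12 with CDDO-Me in WT CM, Ccl2 and the NRF2 KO CM groups, and the cause was not tested. With a pseudocount of 0.1, Ccl12 with CDDO-Me in WT CM had an adjusted p of 0.062, and the Ccl22 interactions of WT CM and KEAP1 KO CM with media 0.078 and 0.2. With no filter, Ccl17 lost its call in WT CM against NRF2 KO CM (0.053) and in its interactions (0.053 to 0.054), and the Ccl2 interaction of WT CM with NRF2 KO CM had 0.081. With a pseudocount of 5, Ccl12 with CDDO-Me in NRF2 KO CM had 0.23. A filter at 5 TPM in 3 libraries left 3 members called, in place of 5, for the interaction of KEAP1 KO CM with media.

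The counts of all genes called moved more than those of the members. For WT CM against media, 988 genes became 4114 with sample weights, 1743 with the replicate block, 2076 with the compared groups alone, 2552 without replicate 3 of both NRF2 KO CM groups (a choice made after seeing the data) and 617 to 733 with 1 library left out. For KEAP1 KO CM against media, 1101 became 5012, 1784, 2225, 2850 and 705 to 916. For WT CM against NRF2 KO CM, 1449 became 3395, 2550 with the block, 168 with the groups alone (5 members) and 810 to 2477. NRF2 KO CM against media had 1 gene, and 0 without scaling, 2 without a filter, 4 with weights, 3 with the block, 0 with the groups alone and 0 to 3 with 1 library left out. KEAP1 KO CM against WT CM had 0, and 1 without a filter, 975 with weights, 2 with the block and 0 to 1. For CDDO-Me in media, 822 became 3523 (4 members), 1464 with the block, 1609 with the groups alone (4 members), 2021 without those 2 libraries and 523 to 604. In WT CM, 3809 became 7127 with weights and 5838 without those libraries, and in KEAP1 KO CM, 3932 became 7006 and 6076. In NRF2 KO CM, 1313 became 2782 with weights, 1986 with the block and 139 with the groups alone (0 members). For the interactions, WT CM with media had 2093, then 5405 (8 members), 3626 and 3835. KEAP1 KO CM with media had 2027, then 5327 (8 members), 3414 and 3949, and 3 to 5 members with 1 library left out. WT CM with NRF2 KO CM had 1834, then 4492, 1130 and 2858. KEAP1 KO CM with WT CM had 0, then 26 with weights and 0 to 1 with 1 library left out.

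Where the rule on deviations of same-numbered libraries was not met, the block added calls for Ccl5 in WT CM against NRF2 KO CM (adjusted p = 0.043) and for Ccl2 with CDDO-Me in WT CM (0.0069) and KEAP1 KO CM (0.017). It also added calls for the Ccl2 interactions of WT CM (0.0017) and KEAP1 KO CM (0.0033) with media. Ccl4 stood at 0.05 for the interaction of KEAP1 KO CM with media. The block changed no other call on the members beside those named in the text. With 1 library left out of a group, the 2 that remain are assumed to vary like the other groups. The values are not counts, so levels below 1 TPM, as for Ccl17 and Ccl22, carry no counting interval.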

Other observations

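Among the marker lists of other cell types, Clec9a, known from cross-presenting dendritic cells, was above 1 TPM in 6 of 24 libraries. The summed levels of 10 neutrophil markers ran from 50.3 to 166 TPM per library, those of 10 T and NK cell markers from 4.92 to 17.3 TPM, those of 10 mast cell and basophil markers from 1.35 to 23.4 TPM and those of 5 B cell markers from 0.536 to 2.65 TPM. Their part in the levels of the CC chemokines was not tested.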
